A study of Homo sapiens with 9 samples.

Results

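The genes described here carry copper across cell membranes or form channels through which platinum drugs have been reported to pass. They are the copper importers SLC31A1 and SLC31A2, the copper chaperone ATOX1, the copper pumps ATP7A and ATP7B, and the 5 LRRC8 channel subunits LRRC8A to LRRC8E. They were taken by symbol from a count table of 24542 genes and loci, and all 10 were found, each under 1 Ensembl identifier. All 10 also passed the filter on low counts that left 15558 genes to be tested.

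The cells were A2780, an established human ovarian carcinoma line labelled WT, and their RNA was sequenced. One group received 0.5% DMSO, the second cisplatin at 0.6 µM and the third Pt-ttpy at 5.5 µM, each for 96 h. Each group had 3 libraries labelled as biological replicates. A DMSO percentage was recorded for the first group only, and whether the drug groups received the same vehicle was not established here. Cisplatin forms platinum crosslinks in DNA. Pt-ttpy also contains platinum, and the series title calls it a binder of G-quadruplexes, folds of guanine-rich DNA or RNA. Each drug was used at its own IC80 concentration per the labels, so the 2 drugs were compared at different molar doses, and all cells came from 1 line.

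Copper enters cells mainly through SLC31A1, also known as CTR1, and is handed by small chaperones such as ATOX1 to the pumps ATP7A and ATP7B, which load copper enzymes in the secretory pathway or expel the metal. The same proteins have been linked to platinum drugs, because platinum can bind the methionine and cysteine residues that hold copper. LRRC8 proteins assemble into the volume-regulated anion channel, in which LRRC8A is the obligatory subunit and the partner subunits set what passes, and channels containing LRRC8D have been reported to let cisplatin through.

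Library totals ranged from 31.3 to 40.8 M counts, and member counts ranged from 0 to 6789 a library, with at least 100 counts in every library for 8 of the 10 genes. On the first principal component, which carried 36.6% of the variance, cisplatin 2 lay at 60.67, against 26.77 and 22.65 for cisplatin 1 and 3. The libraries DMSO 2 and cisplatin 2 stood apart from the other 7 on the second, which carried 15.9% of the variance. In these 2 libraries the deviation of a gene from its mean over all libraries rose with the GC content of its transcript (Spearman's rho across 13278 genes 0.55 and 0.43), while rho lay between −0.36 and −0.18 in the other 7. Because the mean is taken over all libraries, a rise in these 2 lowers the rest, so the negative values are not a separate trend. Because DMSO 2 and cisplatin 2 stood apart, results of the 10 genes and counts over all genes are also given without them. That fit has 2 libraries each for DMSO and cisplatin. The 2 left out were picked from these same data, and leaving out the most deviant libraries tends to lower the estimated spread. Its smaller adjusted p-values are therefore not an independent check. Single genes of the other lists below were read only in the fit of all libraries. Of 10 markers of ovarian carcinoma or epithelium, 8, among them PAX8, WT1, KRT18 and MUC16, stayed under 1 CPM (counts scaled to library size) in every library, and the summed level of all 10 was 0.275 to 0.788 CPM with DMSO, 1.78 to 3.74 with cisplatin and 0.923 to 1.13 with Pt-ttpy. The other 2, both at most 1.78 CPM, were called higher with cisplatin: KRT8 was at 0 to 0.169 CPM with DMSO and 1.008 to 1.78 with cisplatin (adjusted p = 0.00786), and EPCAM at 0 to 0.143 and 0.178 to 1.14 (adjusted p = 0.0338). The 6 fibroblast markers summed to 886 to 992 CPM with DMSO, 1510 to 1800 with cisplatin and 1590 to 1670 with Pt-ttpy, and 4 of the 6 (COL3A1, LUM, DCN and PDGFRB) were higher with each drug. Their part in the results below was not tested. In bulk RNA, fewer cells of a type and less RNA per cell cannot be told apart.

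With cisplatin, SLC31A1, LRRC8C and LRRC8A fell. SLC31A1 fell by 24.1%, LRRC8C fell by 36.1% and LRRC8A fell by 22.7%. These 3 of the 10 genes were called lower and 0 were called higher. Over all tested genes 20.5% were called in that comparison, 9.78% lower and 10.7% higher. With Pt-ttpy, 0 of the 10 genes passed the test against DMSO (12.0% of all tested genes did), and 0 of 10 differed between the 2 drugs (0.514% of all tested genes did). A gene was called at an adjusted p under 0.05 in edgeR's quasi-likelihood test with Benjamini-Hochberg adjustment over all 15558 genes, and every adjusted p below comes from that test unless another is named. The labels do not state that replicates came from separate cultures, and without that the p-values measure only the spread between these libraries, which may be technical.

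The promoter windows of the 3 genes called with cisplatin are shown first. Runs of guanine were marked in them because the other drug, Pt-ttpy, is called a G-quadruplex binder. These 3 genes were not called with Pt-ttpy in the main fit, and a link between the letters and either drug was not tested. The windows are from RefSeq on GRCh38.p14 and run from 250 bases before to 50 bases after an annotated start, read 5′ to 3′ on the gene's own strand, which is the plus strand for all 3. Capitals mark the G-quadruplex pattern, taken as 4 runs of at least 3 G with 1 to 7 bases between runs, on either strand, so that runs of C mark it on the opposite strand.
SLC31A1 (chr9:113221294-113221593): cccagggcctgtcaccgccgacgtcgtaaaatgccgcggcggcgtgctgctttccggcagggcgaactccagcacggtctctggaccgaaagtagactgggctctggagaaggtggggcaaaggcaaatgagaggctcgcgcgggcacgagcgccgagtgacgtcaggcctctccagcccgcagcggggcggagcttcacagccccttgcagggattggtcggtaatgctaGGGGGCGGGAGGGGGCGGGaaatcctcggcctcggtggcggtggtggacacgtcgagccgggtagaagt
LRRC8C (chr1:89632870-89633169): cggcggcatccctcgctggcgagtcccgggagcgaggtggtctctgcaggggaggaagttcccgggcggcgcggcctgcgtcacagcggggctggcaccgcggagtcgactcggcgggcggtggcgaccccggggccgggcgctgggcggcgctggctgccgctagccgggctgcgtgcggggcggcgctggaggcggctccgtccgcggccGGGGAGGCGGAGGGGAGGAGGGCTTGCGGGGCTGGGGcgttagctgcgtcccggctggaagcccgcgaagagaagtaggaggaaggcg
LRRC8A, first start (chr9:128881883-128882182): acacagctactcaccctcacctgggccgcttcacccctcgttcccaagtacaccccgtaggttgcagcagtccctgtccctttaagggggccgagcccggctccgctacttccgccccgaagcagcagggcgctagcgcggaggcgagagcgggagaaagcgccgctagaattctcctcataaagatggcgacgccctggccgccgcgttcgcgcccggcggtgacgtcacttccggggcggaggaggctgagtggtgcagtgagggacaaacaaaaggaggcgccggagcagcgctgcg
LRRC8A, second start (chr9:128882384-128882683): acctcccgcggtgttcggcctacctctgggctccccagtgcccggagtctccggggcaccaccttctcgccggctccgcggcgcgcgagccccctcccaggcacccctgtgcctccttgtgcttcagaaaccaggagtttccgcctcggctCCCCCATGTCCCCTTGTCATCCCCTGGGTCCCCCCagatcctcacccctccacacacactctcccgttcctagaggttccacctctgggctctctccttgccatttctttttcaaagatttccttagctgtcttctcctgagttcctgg

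In SLC31A1 the pattern spanned 19 bases and ended 1 base before the start. In LRRC8C it spanned 37 bases and ended 2 bases before the start. The first LRRC8A start held no match, and the second held 1 of 35 bases on the opposite strand. Windows were found for 9 of the 10 genes, SLC31A2 being the exception, and 6 of these 9 (SLC31A1, ATP7A, ATP7B, LRRC8A, LRRC8C and LRRC8E) held the pattern in at least 1 of their windows. Counted by window the pattern was in 6 of 13, against 25.0% of all 35116 windows of this length. The member windows were rich in GC, at 63.3% to 78.0% apart from an ATP7B window at 45.7%, against a median of 58.7% over all windows. Neither this share nor those of the letters below were compared at equal GC content. The genes with the pattern included ATP7A, ATP7B and LRRC8E, which were not called with either drug, and ATOX1 and LRRC8D had no match.

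Other letters searched on both strands were GGGCGG, the core bound by Sp1-type factors, and TGCACNC and TGCGCNC, the cores of the metal response element. GGGCGG was in 10 of the 13 windows (45.0% of all windows), with 3 copies in SLC31A1, of which 2 lay inside the G-quadruplex pattern, and 4 in LRRC8C. TGCACNC was in 1 of 13 windows, at the second LRRC8D start (12.1% of all windows). TGCGCNC was in 3 of 13, at ATOX1 and at 2 of the ATP7B starts (20.0% of all windows). These 2 ATP7B windows overlap, and a TGCGCNC site and GGGCGG sites in the shared stretch are counted in both. The 13 windows are therefore not all separate DNA. A match describes the letters only.

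SLC31A1, the high-affinity copper importer, lies on chromosome 9 from 113221562 to 113264492 on the plus strand (GRCh38, GENCODE 29, as for all gene positions). Its level was 162.1, 149.6 and 169.4 CPM in DMSO libraries 1, 2 and 3. It was 117.9, 117.3 and 130.0 CPM with cisplatin, and 136.2, 146.4 and 154.2 CPM with Pt-ttpy. All 3 cisplatin libraries lay below every DMSO library and below every Pt-ttpy library, whereas Pt-ttpy and DMSO overlapped. The means were 160.4 ± 10.0 CPM with DMSO, 121.7 ± 7.13 with cisplatin and 145.6 ± 9.05 with Pt-ttpy (SD, n = 3 each, the edgeR fit giving every test below).

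For SLC31A1 the log2 change with cisplatin was −0.40 ± 0.10 (SE; adjusted p = 0.0159). Without DMSO 3 the log2 change was −0.36 (adjusted p = 0.0592), and without cisplatin 1 it was −0.38 (adjusted p = 0.0512). In a fit of the 6 libraries of this comparison alone it was −0.38 (adjusted p = 0.0705). The call was thus lost in these fits with little change in size, and 14 of 17 alternative fits kept it. Without DMSO 2 and cisplatin 2 the log2 change was −0.41 with an adjusted p of 0.000127. The change with Pt-ttpy was −0.14 (95% interval −0.35 to 0.07; adjusted p = 0.365), and −0.18 with an adjusted p of 0.0242 without DMSO 2 and cisplatin 2.

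SLC31A2, also known as CTR2, is a relative of SLC31A1 that sits largely on internal membranes. It is the next of these genes on chromosome 9 (113150942 to 113164137, plus strand), ending 57.4 kb before SLC31A1 starts. It was scarce, at 1.97, 1.89 and 1.22 CPM with DMSO, 1.38, 2.04 and 1.36 with cisplatin, and 1.75, 0.987 and 1.22 with Pt-ttpy. The 3 groups overlapped, and the 35 to 86 counts a library left wide intervals. The log2 change was −0.08 with cisplatin (−0.85 to 0.68; adjusted p = 0.893) and −0.36 with Pt-ttpy (−1.13 to 0.41; adjusted p = 0.534). Of its 2504 exonic bases, 1579 also belong to FKBP15 on the opposite strand, and whether the counting used strand is not given in the sources used here, so reads of the 2 genes may be mixed. Per length SLC31A1 exceeded SLC31A2 48.8-fold ± 16.3 with DMSO, 38.8-fold ± 9.54 with cisplatin and 57.5-fold ± 17.7 with Pt-ttpy (SD, n = 3).

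ATOX1, the cytosolic chaperone that delivers copper to the pumps, lies on chromosome 5 from 151742316 to 151772532 on the minus strand. It measured 19.6, 18.6 and 16.3 CPM with DMSO, 14.0, 14.2 and 13.7 with cisplatin, and 14.0, 14.0 and 13.8 with Pt-ttpy. Every drug library lay below every DMSO library, and the 6 drug libraries stayed within 13.7 to 14.2 CPM. The means were 18.2 ± 1.68, 14.0 ± 0.269 and 13.9 ± 0.134 CPM (SD, n = 3).

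For ATOX1 the log2 difference from DMSO was −0.38 ± 0.13 with cisplatin (SE; adjusted p = 0.0527) and −0.38 ± 0.13 with Pt-ttpy (adjusted p = 0.0683), both past an unadjusted 0.05 but not the adjusted threshold. DESeq2's Wald test called it in both comparisons (adjusted p = 0.0359 and 0.0349), and so did edgeR without DMSO 2 and cisplatin 2 (0.0422 and 0.0259). The difference between the drugs was −0.00 (95% interval −0.28 to 0.27). ATOX1 shares 130 exonic bases with G3BP1 on the opposite strand.

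ATP7A, the copper pump of most tissues, lies on the X chromosome from 77910656 to 78050395 on the plus strand. Its values were 20.5, 12.0 and 18.0 CPM with DMSO, 19.5, 14.9 and 18.9 with cisplatin, and 21.4, 19.7 and 22.5 with Pt-ttpy. The lowest values were those of DMSO 2 and cisplatin 2, and DMSO overlapped with both drugs. The log2 difference was 0.08 with cisplatin (−0.34 to 0.49; adjusted p = 0.808) and 0.33 with Pt-ttpy (−0.08 to 0.74; adjusted p = 0.264). Without DMSO 2 the value for cisplatin was −0.11 and that for Pt-ttpy 0.14 (adjusted p = 0.566), and without DMSO 1 they were 0.24 and 0.50. ATP7A shares 97 exonic bases with PGK1 and 287 with the pseudogene C4orf46P2, both on its own strand.

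ATP7B, the second copper pump, best known from the liver, lies on chromosome 13 from 51930436 to 52012125 on the minus strand. It measured 28.3, 32.0 and 33.3 CPM with DMSO, 33.3, 52.4 and 37.6 with cisplatin, and 35.7, 39.2 and 38.8 with Pt-ttpy. Every drug library was at or above the highest DMSO library, cisplatin 1 exceeding DMSO 3 by too little to show in these digits, and cisplatin 2 was far above the other 8. The log2 difference from DMSO was 0.40 ± 0.16 with cisplatin (SE; adjusted p = 0.0923) and 0.28 ± 0.16 with Pt-ttpy (adjusted p = 0.26). Without cisplatin 2 the value for cisplatin was 0.18 (adjusted p = 0.328), and it was called only when cisplatin 1 was left out (0.53, adjusted p = 0.0432). It was called with Pt-ttpy only without DMSO 2 and cisplatin 2 (0.30, adjusted p = 0.0165). Per length of merged exons ATP7B exceeded ATP7A 2.22-fold ± 0.73 with DMSO, 2.72-fold ± 1.1 with cisplatin and 2.03-fold ± 0.197 with Pt-ttpy (SD, n = 3), and these ranges overlapped. Per kilobase of the longest coding transcript the order was kept, at 2.51-fold with DMSO, 3.07-fold with cisplatin and 2.29-fold with Pt-ttpy. It was reversed with DMSO only per kilobase of the shortest annotated coding transcript, at 9.6 CPM for ATP7B and 29.5 for ATP7A. That transcript of ATP7A has 571 bases, against 8483 in its longest.

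**Figure D1:**
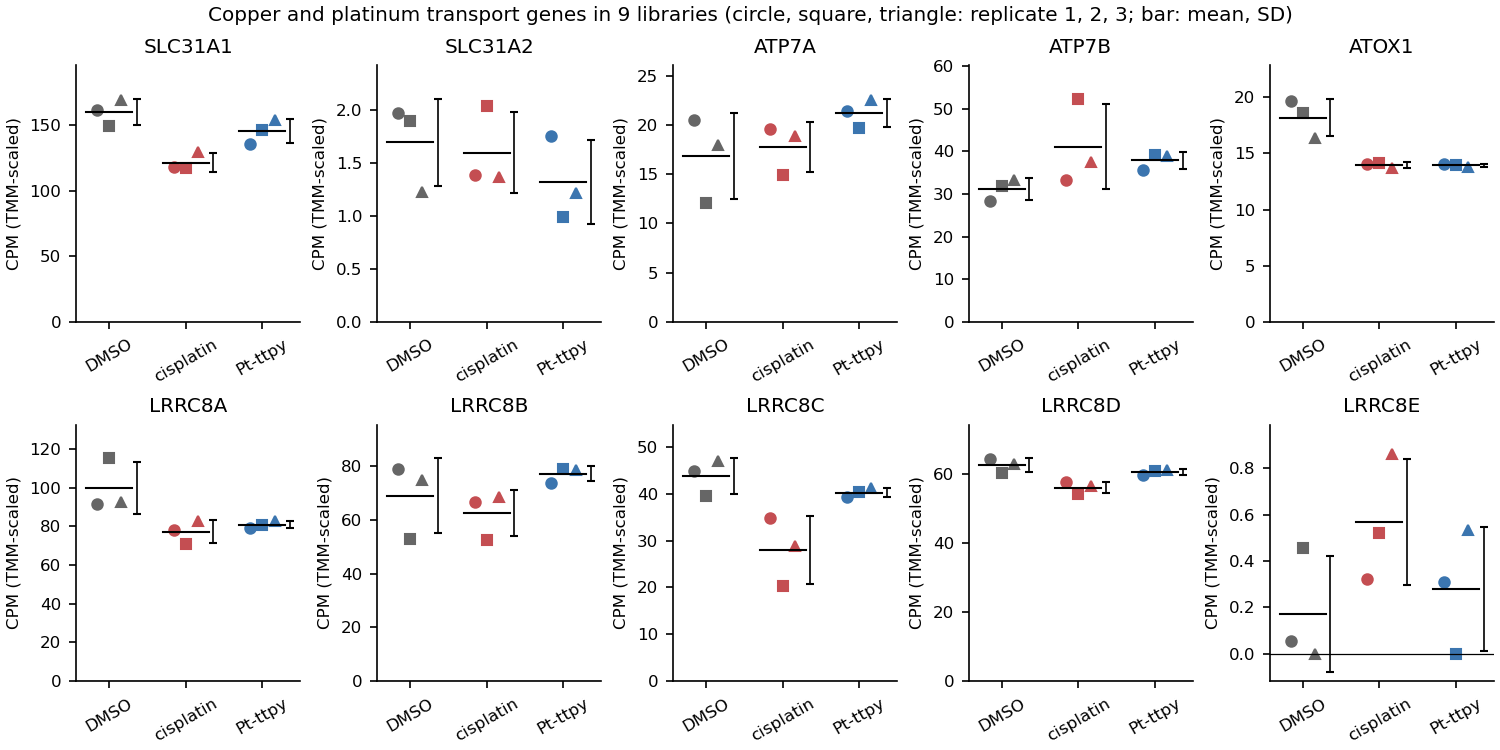
Level of each of the 10 genes in the 9 libraries, in CPM after TMM scaling (y axis, from 0 except for LRRC8E, where an error bar reaches below 0), by group (x axis). Circles, squares and triangles are replicates 1, 2 and 3, horizontal lines are means and vertical bars are 1 SD either side. SLC31A1, LRRC8A, LRRC8C and ATOX1 lay lower in all 3 cisplatin libraries than in any DMSO library, and the ATOX1 values of both drugs stayed within 13.7 to 14.2 CPM.

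LRRC8A, the subunit without which the volume-regulated anion channel does not form, lies on chromosome 9 from 128882112 to 128918039 on the plus strand. It measured 91.8, 115.4 and 92.6 CPM with DMSO, 77.9, 70.9 and 82.8 with cisplatin, and 79.0, 80.6 and 82.7 with Pt-ttpy. All 6 drug libraries lay below all 3 DMSO libraries. DMSO 2 was the highest of the 9 and cisplatin 2 the lowest, and these are the libraries with the rising GC trend.

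The log2 change of LRRC8A with cisplatin was −0.37 ± 0.11 (SE; adjusted p = 0.0396). In 8 of the 9 fits that left out 1 library the adjusted p was past 0.05, between 0.0511 and 0.102, and only the fit without DMSO 1 kept the call (0.041). It was 0.0785 with upper-quartile factors, 0.0731 with library totals and 0.128 in the 6 libraries alone. Without DMSO 2 the log2 change was −0.25, and without DMSO 2 and cisplatin 2 it was −0.19 with an adjusted p of 0.0298. With Pt-ttpy the log2 difference was −0.31 (−0.56 to −0.06; adjusted p = 0.0962), and −0.19 with an adjusted p of 0.0194 without these 2 libraries. Its size therefore depended on DMSO 2 in both comparisons, while its sign did not change in any fit run.

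LRRC8B, LRRC8C and LRRC8D are neighbours on chromosome 1 within 412 kb, all on the plus strand. LRRC8B runs from 89524836 to 89597864, LRRC8C from 89633072 to 89769903 and LRRC8D from 89821014 to 89936611. LRRC8C shares 325 exonic bases, and LRRC8D 329, with the same protein-coding gene without a symbol, on their own strand. LRRC8B shares 246 with LRRC8C-DT on the opposite strand. LRRC8C was 44.9, 39.5 and 47.0 CPM with DMSO, 34.7, 20.4 and 28.96 with cisplatin, and 39.2, 40.4 and 41.2 with Pt-ttpy. Every cisplatin library lay below every other library, while Pt-ttpy lay within the DMSO range apart from 1 value just under it.

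LRRC8C had the largest called change among the 10 genes, a log2 change with cisplatin of −0.65 ± 0.17 (SE; adjusted p = 0.0203). Leaving out DMSO 3 ended the call (adjusted p = 0.067), as did fitting the 6 libraries alone (0.0687), and the other 8 fits that left out 1 library kept it. Cisplatin 2 held the lowest value, and without DMSO 2 and cisplatin 2 the log2 change was −0.52 with an adjusted p of 0.000327. With Pt-ttpy the log2 difference from DMSO was −0.12 (−0.48 to 0.24; adjusted p = 0.67).

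LRRC8D, the subunit most often linked to platinum drug uptake, measured 64.6, 60.5 and 63.0 CPM with DMSO, 57.7, 54.4 and 56.6 with cisplatin, and 59.9, 61.0 and 61.3 with Pt-ttpy. Cisplatin lay below both other groups in every library, but by little. The log2 difference was −0.16 with cisplatin (−0.36 to 0.04; adjusted p = 0.243) and −0.05 with Pt-ttpy (−0.25 to 0.15; adjusted p = 0.78). As a ratio to DMSO these intervals span 0.779 to 1.03 with cisplatin and 0.843 to 1.11 with Pt-ttpy.

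LRRC8B was 79.0, 53.0 and 74.9 CPM with DMSO, 66.7, 52.5 and 68.4 with cisplatin, and 73.8, 79.0 and 78.6 with Pt-ttpy. DMSO 2 and cisplatin 2 were again the 2 lowest, and DMSO overlapped with both drugs. The log2 difference was −0.14 with cisplatin (adjusted p = 0.544) and 0.16 with Pt-ttpy (adjusted p = 0.519). Without DMSO 2 these values were −0.30 and 0.01, without DMSO 1 they were −0.04 and 0.27, and without cisplatin 2 the value for cisplatin was −0.03. Without DMSO 2 and cisplatin 2 LRRC8B was called with cisplatin, at −0.18 (adjusted p = 0.0477).

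LRRC8E, on chromosome 19 from 7888505 to 7902021 on the plus strand, was nearly silent. Its counts were 2, 16 and 0 with DMSO, 10, 22 and 29 with cisplatin, and 10, 0 and 18 with Pt-ttpy. A count of 0 allows up to 3 counts, or 0.0735 CPM in DMSO 3 and 0.0856 CPM in Pt-ttpy 2, which covers counting error only. The groups overlapped, and the log2 difference with cisplatin had an interval of −0.83 to 4.30 (adjusted p = 0.319). Without DMSO 2 and cisplatin 2 the adjusted p for cisplatin was 0.0405, on DMSO counts of 2 and 0. Of its 4329 exonic bases, 3218 are shared with an antisense gene.

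**Figure D2:**
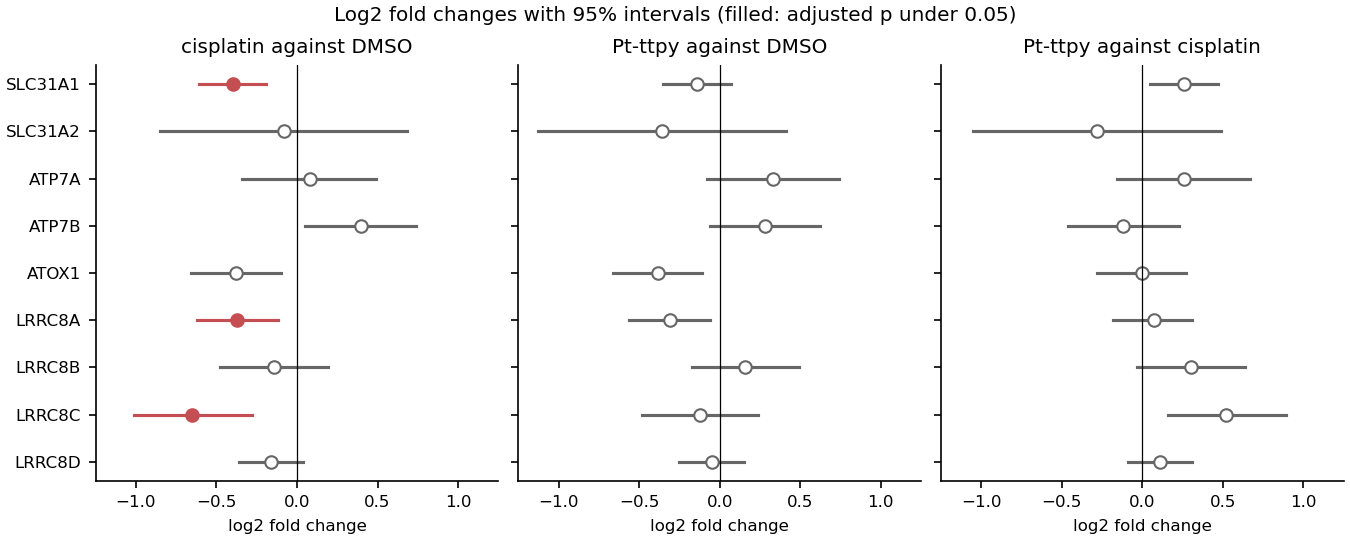
Fitted log2 fold changes (x axis) of 9 genes (y axis) in the 3 comparisons, with 95% intervals as lines; filled red points passed an adjusted p of 0.05 and open points did not. LRRC8E is left out because its interval with cisplatin, −0.83 to 4.30, is wider than the axis. The 3 filled points are SLC31A1, LRRC8A and LRRC8C with cisplatin, and the ATOX1 values of both drugs against DMSO are equal at −0.38.

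Seen over all 10 genes, the median log2 difference from DMSO was −0.15 with cisplatin, against 0.01 for all tested genes, and −0.08 with Pt-ttpy, against 0.03. With cisplatin the 3 libraries lay wholly apart from the 3 DMSO libraries for 6 of the 10 genes, against 38.0% of all tested genes. Of the 6, SLC31A1, ATOX1, LRRC8A, LRRC8C and LRRC8D were lower (5 of 10, against 19.4% of all) and ATP7B was higher (1 of 10, against 18.6%). With Pt-ttpy 3 of 10 lay apart, against 40.9% of all tested genes, ATOX1 and LRRC8A lower (20.6% of all) and ATP7B higher (20.3% of all). An unadjusted p under 0.05 was reached by 5 of 10 genes with cisplatin (35.1% of all) and by 2 of 10 with Pt-ttpy (29.8% of all). DESeq2 called 1 of 10 with Pt-ttpy, ATOX1, and 2853 of the 15558 tested genes. With cisplatin it called 4 of 10, all lower, and 3943 of the 15558. Both comparisons used the same 3 DMSO libraries, so they are not independent.

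Without DMSO 2 and cisplatin 2, picked from these same data for standing apart, more genes were called, among the members and in the whole table. With cisplatin 6 of 10 were called (30.2% of all tested genes), SLC31A1, LRRC8C, LRRC8A, ATOX1 and LRRC8B lower (16.4% of all) and LRRC8E higher (13.9% of all). Not called with cisplatin were ATP7B (0.21, adjusted p = 0.132), LRRC8D (−0.15, 0.0905), ATP7A (0.00, 0.987) and SLC31A2 (−0.21, 0.769). With Pt-ttpy 4 of 10 were called (33.2% of all), ATOX1, LRRC8A and SLC31A1 lower (17.4% of all) and ATP7B higher (15.8% of all). Not called with Pt-ttpy were LRRC8C (−0.19, adjusted p = 0.0969), LRRC8D (−0.07, 0.439) and LRRC8B (0.01, 0.95). Nor were ATP7A (0.14, 0.324), SLC31A2 (−0.27, 0.658) and LRRC8E (3.22, 0.112).

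The 2 drugs were compared directly at their own IC80 doses, 5.5 µM against 0.6 µM, and no dose was shared. In edgeR 0 of the 10 genes passed, 2 of 10 had an unadjusted p under 0.05 (8.06% of all tested genes), and DESeq2 also called 0. LRRC8C was 0.52 higher on the log2 scale with Pt-ttpy than with cisplatin (95% interval 0.16 to 0.89; adjusted p = 0.337), and SLC31A1 was 0.26 higher (0.05 to 0.47; adjusted p = 0.484). For 5 of the 10 genes (SLC31A1, ATP7A, LRRC8B, LRRC8C and LRRC8D) every Pt-ttpy library lay above every cisplatin library, and for 0 below. Of all tested genes 20.6% lay apart, 10.5% above and 10.1% below. Without DMSO 2 and cisplatin 2, SLC31A1 (0.23, adjusted p = 0.0319) and LRRC8C (0.34, adjusted p = 0.0254) were called higher with Pt-ttpy, 2 of 10 genes, against 5.2% of all called and 2.37% called higher.

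The other genes did not reach an unadjusted p of 0.05 between the drugs, and their intervals give how far they may differ. LRRC8A differed by 0.07 (−0.18 to 0.31), LRRC8D by 0.11 (−0.09 to 0.31) and ATP7B by −0.12 (−0.46 to 0.23). LRRC8B differed by 0.30 (−0.03 to 0.64) and ATP7A by 0.26 (−0.16 to 0.67), with DMSO 2 and cisplatin 2 low for both genes. Without cisplatin 2 the ATP7A difference was 0.14. For the scarce genes the intervals were wide, with SLC31A2 at −0.28 (−1.05 to 0.49) and LRRC8E at −1.02 (−3.48 to 1.44).

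Levels of different genes were compared as CPM per kilobase of merged exons. With DMSO, SLC31A1 was highest at 31.3 ± 1.95, followed by LRRC8A at 19.1 ± 2.57, LRRC8D at 12.9 ± 0.425 and LRRC8B at 8.40 ± 1.71 (SD, n = 3). LRRC8C (3.73 ± 0.33), ATOX1 (3.47 ± 0.321) and ATP7B (3.23 ± 0.267) came next, and neighbours among these 3 overlapped. ATP7A (1.54 ± 0.399), SLC31A2 (0.677 ± 0.164) and LRRC8E (0.0396 ± 0.0577) were lowest. Other neighbours in this order did not overlap between libraries. With the longest coding transcript as length the order with DMSO was the same, except that ATP7B (4.7) stood above ATOX1 (4.19). It changed more with the shortest annotated coding transcript, which has 571 bases for ATP7A, 588 for LRRC8D and 763 for LRRC8B. Per kilobase of the shortest annotated coding transcript the same counts gave 107 for LRRC8D, 90.4 for LRRC8B and 39.0 for ATOX1. On that length SLC31A1 stood at 33.8, ATP7A at 29.5, LRRC8A at 24.0 and ATP7B at 9.6. Which transcripts the cells made was not measured. With cisplatin the order of these 3 was ATP7B (4.25 ± 1.03), ATOX1 (2.67 ± 0.0514) and LRRC8C (2.39 ± 0.616), the last 2 overlapping. With Pt-ttpy it was ATP7B (3.92 ± 0.199), LRRC8C (3.44 ± 0.0862) and ATOX1 (2.66 ± 0.0256), without overlap. With merged exons the first 4 and last 3 places were the same in the 3 groups.

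Within the LRRC8 family, LRRC8A made up 43.2% ± 5.58 of the transcripts per length with DMSO, 40.5% ± 1.06 with cisplatin and 37.8% ± 0.232 with Pt-ttpy (SD, n = 3). In single libraries its share was 39.6%, 49.6% and 40.4% with DMSO, and DMSO 1 and 3 lay within 39.3% to 41.1%, the range of cisplatin, but above the 37.5% to 38.0% of Pt-ttpy. LRRC8D held 29.2% ± 1.05, 31.9% ± 1.88 and 30.7% ± 0.309 in the 3 groups, and LRRC8B held 19.0% ± 3.93, 20.8% ± 1.24 and 23.0% ± 0.439. LRRC8C held 8.45% ± 0.802 with DMSO, 6.50% ± 1.27 with cisplatin and 8.41% ± 0.03 with Pt-ttpy. LRRC8E stayed under 1%, with 0.516% in cisplatin 3 as its highest share. These shares are relative to each other, so a fall in 1 member raises the rest, and they were not tested. They are per kilobase of merged exons. With the longest coding transcript as length the order was the same in the 3 groups. With DMSO it gave 41.4% for LRRC8A, 30.4% for LRRC8D, 16.5% for LRRC8B and 11.6% for LRRC8C. The order changed with the shortest annotated coding transcript, which has 588 bases for LRRC8D and 763 for LRRC8B. Per kilobase of the shortest annotated coding transcript, LRRC8D (107) and LRRC8B (90.4) exceeded LRRC8A (24.0) with DMSO.

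**Figure D3:**
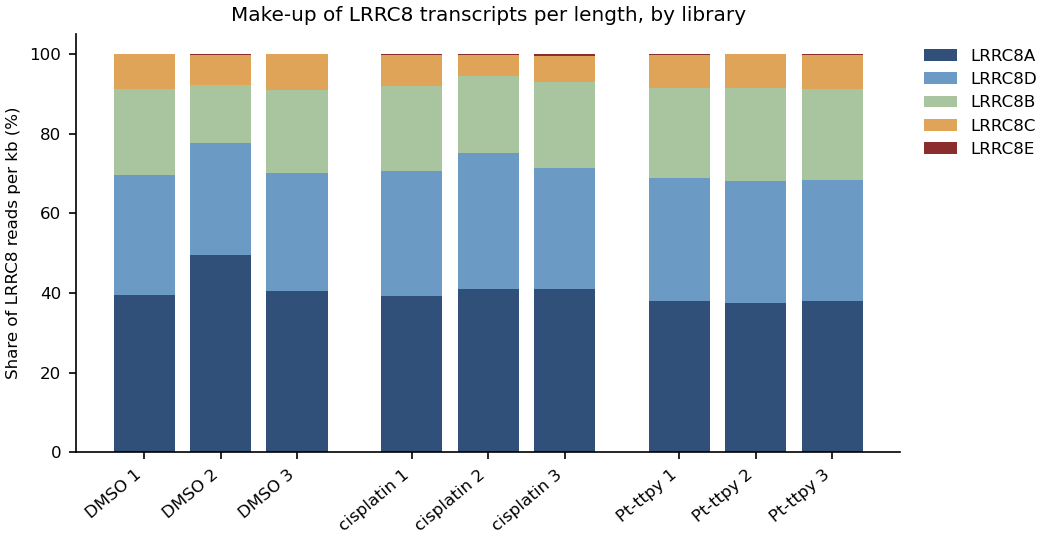
Share of each LRRC8 gene in the sum of LRRC8 reads per kilobase (y axis, percent) in each of the 9 libraries (x axis), stacked to 100%. Per kilobase of merged exons LRRC8A took the largest share everywhere, 49.6% in DMSO 2 and 37.5% to 41.1% in the other 8. LRRC8C took its smallest, 5.27%, in cisplatin 2. The order of the group means was the same with the longest coding transcript as length, but not with the shortest.

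The members differed in how far DMSO 2 and cisplatin 2 departed from the other libraries of their group. The GC content of the longest coding transcript was 38.1% for LRRC8C, 38.9% for ATP7A and 39.0% for LRRC8B, and 57.6% for LRRC8A. In DMSO 2, the log2 ratio to the mean of DMSO 1 and 3 was −0.68 for ATP7A, −0.54 for LRRC8B and 0.32 for LRRC8A. In cisplatin 2 it was −0.64 for LRRC8C and 0.56 for ATP7B, at 52.1% GC, but −0.18 for LRRC8A. ATOX1 and LRRC8D stayed within 0.08 of the other libraries in both groups.

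**Figure D4:**
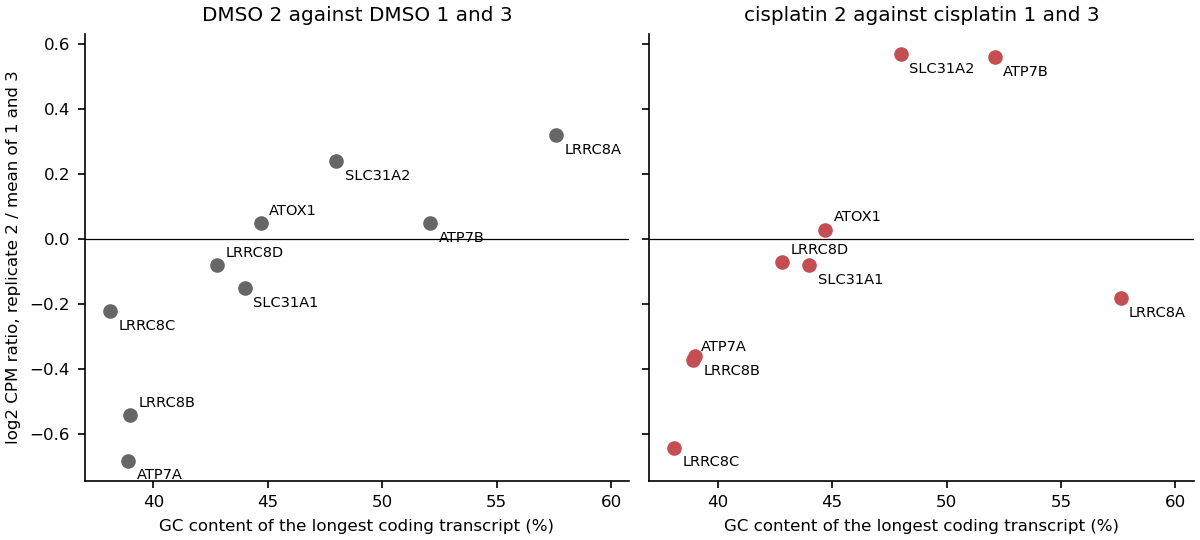
Log2 ratio of replicate 2 to the mean of replicates 1 and 3 (y axis) against the GC content of the longest coding transcript (x axis, percent) for 9 genes, in the DMSO group and the cisplatin group; LRRC8E is left out for its low counts. In DMSO 2 the genes under 40% GC lie lowest and LRRC8A, at 57.6%, highest, while in cisplatin 2 LRRC8A lies at −0.18.

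Some members moved together over the 9 libraries, which share the treatments and the GC trend, so the following values are descriptions. Pearson's r of log2 CPM was 0.94 between LRRC8C and LRRC8D, 0.92 between SLC31A1 and LRRC8D, 0.89 between ATP7A and LRRC8B and 0.83 between SLC31A1 and LRRC8C. It was −0.80 between LRRC8C and ATP7B. Over all genes, those most like SLC31A1 were NUDT9 (r = 0.979), NCAPG2 (0.968) and GZF1 (0.967). For ATOX1 they were TIMM10 (0.976), ARHGEF10 (0.966) and GEMIN7 (0.962), and for LRRC8C they were EZH2 (0.981), ALDH3A2 (0.979) and CHD7 (0.976), over 9 libraries each.

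Genes that receive copper further on were also read. Of 13 genes of mitochondrial and cytosolic copper delivery, 3 fell with cisplatin, 0 rose and 10 did not pass, with a median log2 difference of −0.27 over the list, against 0.01 for all tested genes. The share called was near that of all tested genes (20.5%). FDX1, a mitochondrial ferredoxin tied to copper toxicity, fell by 0.49 on the log2 scale (adjusted p = 0.0187), from 57.0 ± 1.92 to 40.7 ± 6.29 CPM (SD, n = 3, edgeR). In cisplatin libraries 1, 2 and 3 FDX1 read 43.6, 33.5 and 45.0 CPM. The copper enzyme SOD1 fell by 0.29 (adjusted p = 0.0456), from 146.2 ± 9.95 to 119.8 ± 3.42 CPM (SD, n = 3, edgeR). CMC2, a factor of cytochrome oxidase assembly, fell by 0.40 (adjusted p = 0.0309), and shares exons with CENPN. With Pt-ttpy 0 of 13 passed (12.0% of all tested genes did), the median was −0.23 against 0.03, and FDX1, CMC2 and SOD1 stood at −0.38, −0.35 and −0.23 (adjusted p = 0.0637, 0.0719 and 0.116).

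Among 17 tested genes of copper regulation, trafficking and reduction, 1 was called with cisplatin, against 20.5% of all tested genes, and 0 with Pt-ttpy, against 12.0%. The list medians were −0.06 and −0.05, against 0.01 and 0.03 for all tested genes. MEMO1, a copper-binding protein, fell by 0.37 on the log2 scale (adjusted p = 0.0191), and shares 1385 of its 5220 exonic bases with DPY30.

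Of 10 tested carriers linked to platinum drugs in other tissues, 2 fell with cisplatin and 1 with Pt-ttpy, and 0 rose, near the 20.5% and 12.0% called among all tested genes. The list medians were −0.11 and −0.07, against 0.01 and 0.03. SLC22A5, the carnitine transporter, fell by 0.50 with cisplatin (adjusted p = 0.0211) and stood at −0.19 with Pt-ttpy (adjusted p = 0.361). SLC19A1, the folate carrier, fell by 0.40 with cisplatin (adjusted p = 0.0456) and by 0.44 with Pt-ttpy (adjusted p = 0.0415), and it shares exons with COL18A1 on the opposite strand. SLC22A2, the cation transporter that carries cisplatin into kidney cells, had 0 counts in all 9 libraries.

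Of 24 tested channels and transporters of anions and cell volume outside the LRRC8 family, 4 rose and 1 fell with cisplatin, a share near the 20.5% called among all tested genes, and 0 were called with Pt-ttpy (12.0% of all). The list medians were 0.02 and 0.11, against 0.01 and 0.03. Those that rose included TTYH3 (0.62, adjusted p = 0.013) and TTYH2 (0.60, adjusted p = 0.0259), of the tweety family, and the potassium-chloride cotransporter SLC12A4 (0.60, adjusted p = 0.0228). TTYH3 read 91.6, 107.3 and 89.5 CPM with DMSO, 132.5, 183.9 and 125.6 with cisplatin, and 98.6, 102.1 and 92.0 with Pt-ttpy. In each of these 3 genes cisplatin 2 was the highest of the 9 libraries. CLCN4, a chloride-proton exchanger, fell by 0.36 (adjusted p = 0.0374).

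Glutathione binds platinum in the cytosol. Of its 8 genes, GGT1, which breaks glutathione down at the cell surface, rose with cisplatin (0.76, adjusted p = 0.0118), and GSR, which regenerates it, fell (−0.40, adjusted p = 0.0117). These 2 of 8 compare with 20.5% called among all tested genes. With Pt-ttpy 0 of 8 were called (12.0% of all). The list medians were −0.11 and 0.06, against 0.01 and 0.03, and with Pt-ttpy GGT1 and GSR stood at 0.24 and −0.25 (adjusted p = 0.371 and 0.0951). GGT1 shares exons with SNRPD3. In none of these 5 lists did a gene pass the test between the 2 drugs.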

How the data were processed

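Total RNA of A2780 cells was made into libraries with a SMARTer mRNA kit, per the labels' protocols. The authors deposited 1 table of raw counts per gene for the 9 libraries, and the submitters' processing notes name the build GRCh38. Aligner, counting program and strandedness: not given in the sources used here. No column of counts was left unused, and no 2 libraries were duplicates.

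Counts were analysed in R 4.3.3 with edgeR 4.0.16: filterByExpr (minimum count 10), TMM factors, and a robust quasi-likelihood fit with 1 mean per group over all 9 libraries, two-sided, with Benjamini-Hochberg adjustment over 15558 genes and a threshold of 0.05. The fit was tested on simulated counts. CPM are counts divided by the TMM-scaled library size. Intervals are at 95%. The prior count was 0.125 for log2 changes and 2 for correlations. Positions, exon overlaps and lengths come from GENCODE 29, and promoter windows from RefSeq. GC content was known for 85.3% of tested genes.

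The text names all 10 members, up to 4 called genes per list by adjusted p, and the 3 genes most correlated with the member of smallest adjusted p in each comparison; a gene that meets this rule is not reported here. The members and lists were chosen with earlier results of these data known. Alternatives were DESeq2 1.42.0, 3 other scalings, no filter, a replicate block, the 6 libraries of a comparison, each library left out, DMSO 2 and cisplatin 2 left out together, and another gene length.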

Additional observations from a re-analysis of the deposited data

How the results depend on the processing

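Of the 10 transport genes, the number called with cisplatin was 3, and 4 with DESeq2. It was 0 in the 6 libraries of that comparison, 6 without DMSO 2 and cisplatin 2, and 0 to 3 with 1 library left out (0 without DMSO 3). With Pt-ttpy it was 0, 1 with DESeq2 (ATOX1), 4 without DMSO 2 and cisplatin 2, and 0 to 1 with 1 library left out. Between the drugs it was 0, and 2 without DMSO 2 and cisplatin 2. Over all genes, 3190 were called with cisplatin, 3943 with DESeq2, 1313 in the 6 libraries alone, 4728 without DMSO 2 and cisplatin 2 and 2012 to 3100 with 1 library left out. With Pt-ttpy 1874 were called, 2853 with DESeq2, 5189 without DMSO 2 and cisplatin 2 and 185 to 3004 with 1 library left out, the lowest without Pt-ttpy 2. Between the drugs 80 were called, 253 with DESeq2, 813 without DMSO 2 and cisplatin 2 and 18 to 155 with 1 library left out. The causes were not tested. Scaling moved the split over all genes: with cisplatin 1669 rose and 1521 fell, but 1940 and 913 with upper-quartile factors and 1995 and 943 with library totals. With Pt-ttpy 870 rose and 1004 fell, but 1050 and 666, and 1005 and 773.

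A replicate block left all 30 member results on the same side of the threshold, and 140 genes were called between the drugs with it. Same-numbered libraries correlated at −0.039 to 0.221 in their deviations, 1 of 9 pairs above 0.1, so the numbers were not taken to pair the samples.

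Only uncalled log2 differences changed sign. LRRC8D with Pt-ttpy was 0.02 with upper-quartile factors and 0.02 with library totals. SLC31A2 with cisplatin was 0.01 and 0.02 under these, and −0.30 to 0.04 with 1 library left out. With 1 library left out, LRRC8E with Pt-ttpy ranged from −0.15 to 3.22, ATP7A with cisplatin from −0.11 to 0.24, ATP7B between the drugs from −0.25 to 0.10 and ATOX1 between the drugs from −0.02 to 0.01. Without DMSO 2 and cisplatin 2 the last 2 were 0.09 and 0.01. With the longest coding transcript as length, LRRC8A held 39.1% of LRRC8 transcripts with cisplatin and 36.3% with Pt-ttpy, LRRC8B 18.1% and 19.9%, LRRC8C 11.6% with DMSO, 9.0% with cisplatin and 11.6% with Pt-ttpy, and LRRC8D 30.4% with DMSO and 32.0% with Pt-ttpy. SLC31A2 and LRRC8E were limited by depth.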
